A study of Rattus norvegicus with 8 samples.

Results

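The 52 genes described here encode the surface proteins by which cells hold on to each other and to the matrix around them: cadherins, protocadherins, claudins, integrins and 5 adhesion molecules of the immunoglobulin superfamily. They were chosen by gene symbol from an array table of the dorsal root ganglion, out of 10796 named genes, with earlier results of these data known. All symbols made of Cdh or Cldn and a digit, or starting with Pcdh, Itga or Itgb, were joined by Ncam1, L1cam, Nrcam, Icam1 and Vcam1, and Cdh5, Cldn4 and Itgam were left out. Each of the 52 could be tested. They were measured by 66 probes, 12 of the genes by more than 1, and the brightest probe stood for its gene. The label fits the symbols except for Itgb1bp1, which is no integrin but a cytoplasmic protein that binds the tail of the beta 1 subunit.

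Ganglia came from Sprague Dawley rats at day 7, from 4 samples of the spinal nerve ligation group and 4 samples of the control group, each pooled from 2 animals. Spinal nerve ligation (the Chung model) ties spinal nerves next to the ganglion and elicits neuropathic pain. The ligation samples were labelled as ipsilateral; the control samples were called contralateral in their titles and sham-operated in their descriptions, so side and operation cannot be told apart. Each sample, labelled with Cy5, shared an array with the same Cy3-labelled control pool, with no dye swap. The ganglion holds the cell bodies of sensory neurons wrapped by satellite glia, with Schwann cells, fibroblasts, vessels, resident macrophages and a connective tissue capsule. In such bulk tissue, fewer cells of a type and less RNA per cell cannot be told apart.

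Integrins are dimers of an alpha and a beta subunit that bind matrix proteins or counter-receptors and tie them to actin through talin, kindlin and paxillin. Cadherins bind the same cadherin on the next cell through calcium-dependent outer repeats, and classical cadherins hold actin through catenins. Claudins seal the space between cells in tight junctions, which in peripheral nerve close the perineurium. Immunoglobulin adhesion molecules serve axon contact (Ncam1, L1cam, Nrcam) or the docking of leukocytes (Icam1, Vcam1).

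Each array gives a gene 1 log2 ratio, the sample's intensity over that of the reference, and a change is the mean ratio of the 4 ligation arrays minus that of the 4 control arrays. The adjusted p is from limma over all 22379 probes tested, with 0.05 as the threshold, and rounding bounds give the changes that the printed decimals of the intensities allow. The median log2 ratio was 0 on every array, and the SD over spots was 0.589 to 0.632 on the ligation arrays and 0.184 to 0.226 on the control arrays. Of the 52 genes, 22 rose and 12 fell. Among 10748 named genes with a value, 30.2% rose and 35.9% fell, so the share of adhesion genes called in either direction (65.4%, against 66.1% of all genes) was near the background. The direction differed by family. Integrin subunits rose in 12 of 13 cases with 0 lower (median log2 change 0.91). On the sample channel alone, with each array centred on its median, Itgb8 lost its call. Itga7 changed sign there without passing, though on 3 ligation arrays its intensity lay where bright spots piled up, which can hide a rise. The classical cadherins of the set fell in 6 of 8 cases with 0 higher (median -0.46). Cdh5, an endothelial cadherin left out of the set, rose by 0.77 on the log2 scale (adjusted p = 7.76e-04). Claudins and protocadherins went both ways, and the median change of all named genes was -0.05. Changes of 2-fold or more that passed the test numbered 11 among the adhesion genes, 8 higher and 3 lower. Among all named genes 11.2% changed that far, 6.51% higher and 4.7% lower. The ligation arrays did not overlap with the control arrays for 32 of the 52 genes (61.5%), against 62.3% of all named genes.

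**Figure D1:**
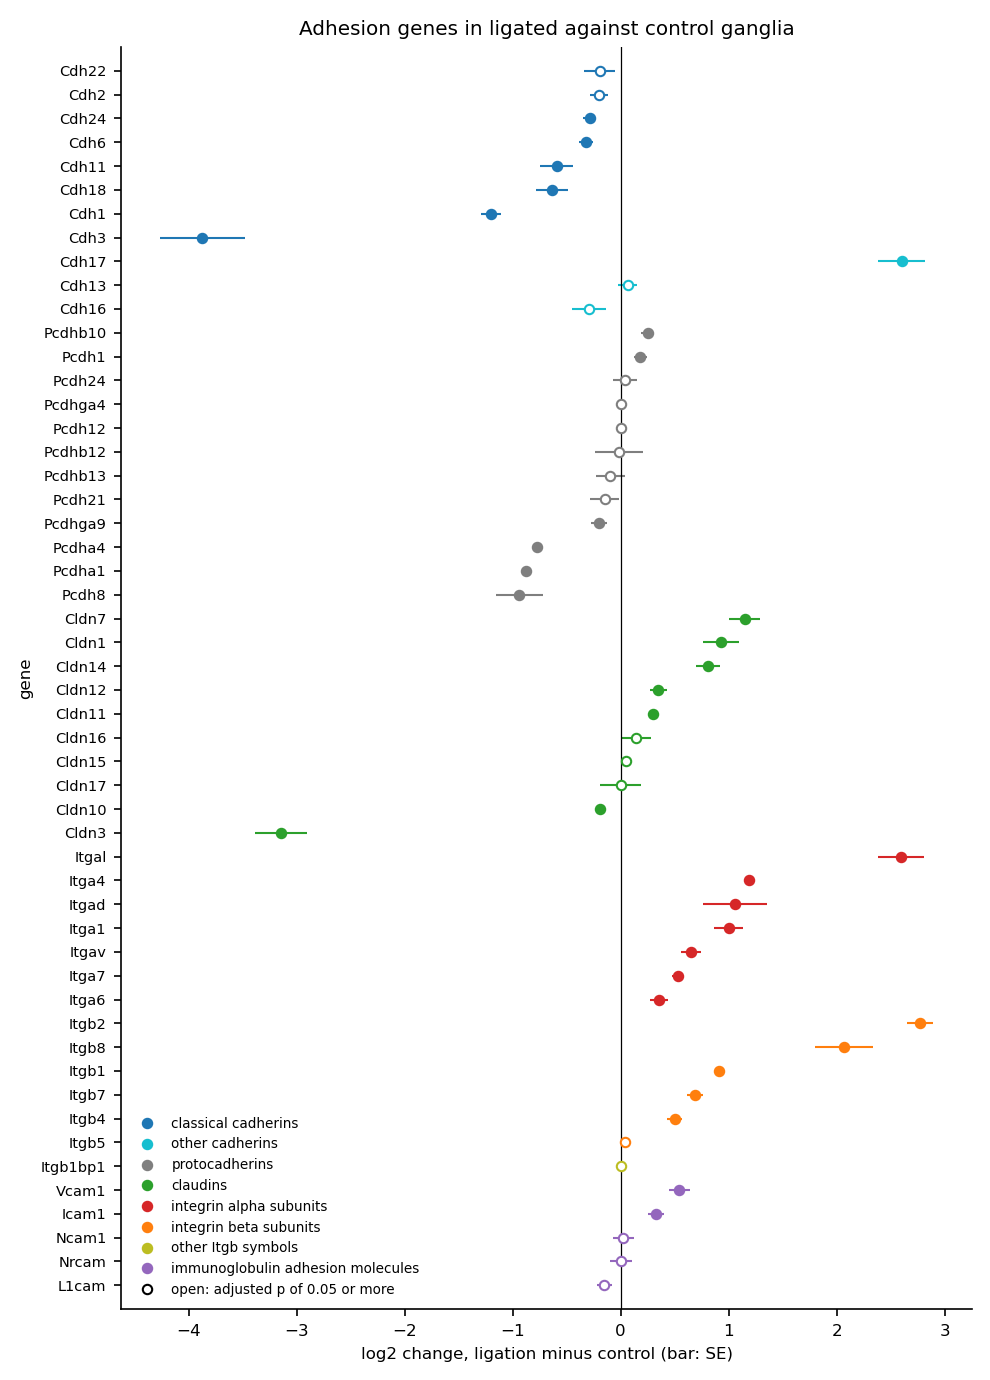
Log2 change, ligation minus control, of the 52 adhesion genes with its standard error (horizontal axis), 1 row per gene, coloured by family. Filled points passed the adjusted p threshold of 0.05 and open points did not. The 13 integrin subunits lie at or right of 0, and all 8 classical cadherins lie left of 0, with Cdh3 at -3.87 and Itgb2 at 2.77 as the extremes.

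Itgb2 and Itgal, integrin subunits of leukocytes, had the largest log2 changes of the 13 subunits, and the other leukocyte subunits rose by 0.69 to 1.18. Itgb2, the beta 2 subunit (CD18) that all leukocyte integrins of its family share, had log2 ratios of 2.22, 2.68, 2.74 and 2.32 on ligation arrays 1 to 4, against -0.32, -0.22, -0.26 and -0.32 on control arrays 1 to 4. The groups lay far apart, and the change was 2.77 ± 0.12 (SE, n = 4 per group, 6.84-fold, adjusted p = 2.14e-06). Its partner Itgal, the alpha L subunit (CD11a) that with beta 2 forms LFA-1, the receptor for Icam1, had 1.99, 2.43, 2.72 and 2.36 in ligation, against -0.74, -0.12, 0.06 and -0.12 in control. That was a 6.06-fold rise (2.60 ± 0.21, adjusted p = 3.44e-05) on the brighter of 2 probes. The other Itgal probe was dim (intensity 0.035 in ligation and 0.0325 in control) and gave a log2 change of -0.04 (adjusted p = 0.874, rounding bounds -0.94 to 0.85). Itgad, alpha D, which also pairs with beta 2, had 1.00, 1.00, 0.22 and 0.58 in ligation, against -1.10, 0.00, 0.04 and -0.36 in control. It passed (1.06 ± 0.30, adjusted p = 0.0182) at an intensity of 0.02 in ligation and 0.00728 in control, where rounding allowed -0.38 to 2.67, and the call was lost when ligation replicate 1 (adjusted p = 0.0526) or 2 (adjusted p = 0.0535) was left out, with a replicate block (adjusted p = 0.0593) or under quantile normalization between arrays (adjusted p = 0.11).

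Itga4, the alpha 4 subunit of lymphocytes and monocytes, pairs with beta 1 to bind Vcam1 and fibronectin and with beta 7 to bind Madcam1. Its log2 ratios were 1.32, 1.14, 1.14 and 1.14 in ligation, against 0.00 on each of the 4 control arrays. The change was 1.18 ± 0.05 (2.27-fold, adjusted p = 1.23e-06), at an intensity of 0.107 in ligation and 0.0425 in control, and rounding allowed 0.62 to 1.76. Itgb7, the beta 7 subunit, had 0.53, 0.54, 0.83 and 0.68 in ligation, against 0.00, 0.00, -0.17 and 0.00 in control, a rise of 1.61-fold (adjusted p = 1.74e-04). Both groups were again apart in each of these genes.

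The counter-receptors on vessel walls rose less. Vcam1 had log2 ratios of 0.48, 0.63, 0.60 and 0.28 in ligation, against -0.07, -0.09, 0.14 and -0.17 in control (1.46-fold, adjusted p = 0.00199). Icam1 had 0.38, 0.31, 0.48 and 0.13 in ligation, against 0.00, 0.07, 0.00 and -0.09 in control (1.25-fold, adjusted p = 0.00763). Ligation replicate 4 was the lowest ligation array for both genes, and the groups did not overlap. Neither gene passed under quantile normalization between arrays (adjusted p = 0.0996 for Vcam1 and 0.151 for Icam1), nor did Icam1 on the sample channel alone (adjusted p = 0.0654). Of their partners, Icam2, another ligand of LFA-1, rose by a log2 change of 0.39 (adjusted p = 0.00349). The ERM proteins, which tie such receptors to actin, rose too: Ezr by 1.02, Rdx by 0.54 and Msn by 0.35. Spn (CD43) rose by 0.93 and the platelet and endothelial selectin Selp by 0.86, while Sele did not pass (log2 -0.02, adjusted p = 0.941).

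Markers of blood cells moved beside these integrins. Of 9 measured macrophage markers 8 rose and 0 fell, and their summed intensity was 27.45 to 31.36 on the ligation arrays, against 3.98 to 4.81 on the control arrays. All 9 measured T and NK cell markers rose, with a summed intensity of 1.49 to 1.88 in ligation and 0.81 to 1.14 in control. Nkg7 of that list was not measured, Cd3d rose by 0.13, and rounding bounds held 0 for Cd3g, Cd8b and Lck. Of 3 neutrophil markers 0 rose and 1 fell. Of 4 platelet markers Pf4 rose by 1.29 on the log2 scale, and 2 fell. Of 8 endothelial and pericyte markers, of the cells that carry Icam1 and Vcam1, 4 rose and 0 fell, with a summed intensity of 7.61 to 10.03 in ligation and 7.88 to 9.08 in control. The part of these cells in the rise of the integrin genes and of Icam1 and Vcam1 was not tested. Itgal and Itgb2 were lower on ligation arrays 1 and 4 than on arrays 2 and 3, and so was Vcam1.

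Among subunits that bind matrix proteins, log2 changes ran from 0.04 (Itgb5, not called) to 2.06 (Itgb8). Itgb1, the beta 1 subunit shared by most matrix receptors, had the tightest values of the family: 0.85, 0.80, 0.90 and 0.91 in ligation, against -0.02, 0.00, -0.10 and -0.04 in control. The rise was 1.88-fold (0.91 ± 0.03, adjusted p = 1.17e-06), with sample intensities of 1.38 in ligation and 0.643 in control. Itga1, which with beta 1 binds collagen and laminin, had 1.25, 1.29, 1.21 and 0.92 in ligation, against 0.47, 0.21, 0.10 and -0.12 in control (2.00-fold, adjusted p = 4.99e-04). Under quantile normalization between arrays the Itga1 change was 0.32 and did not pass (adjusted p = 0.429).

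Promoter windows are shown for Itgb1 and Itga4, the subunits of the alpha 4 beta 1 receptor that rose together. They run from 250 bases before to 50 bases after the gene start, from RefSeq on GRCr8, and capitals mark GAGGAA or its reverse complement TTCCTC, the core bound by PU.1 and other Ets factors of leukocytes. The window of Itgb1 (chr19:73602027-73602326, plus strand) holds 1 such match and that of Itga4 (chr3:84569765-84570064, plus strand) holds 0.
Itgb1: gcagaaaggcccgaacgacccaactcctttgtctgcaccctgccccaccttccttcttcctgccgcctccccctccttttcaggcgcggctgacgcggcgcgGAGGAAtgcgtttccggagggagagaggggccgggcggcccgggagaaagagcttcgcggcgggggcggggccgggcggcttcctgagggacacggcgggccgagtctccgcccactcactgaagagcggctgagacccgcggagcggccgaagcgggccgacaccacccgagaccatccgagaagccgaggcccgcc
Itga4: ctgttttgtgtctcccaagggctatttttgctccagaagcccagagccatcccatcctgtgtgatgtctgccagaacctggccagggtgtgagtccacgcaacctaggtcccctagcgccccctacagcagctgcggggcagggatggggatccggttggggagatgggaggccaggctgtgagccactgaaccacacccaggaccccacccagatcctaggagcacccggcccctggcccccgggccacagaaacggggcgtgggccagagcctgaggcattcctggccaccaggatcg
The core was found on either strand in 27.6% of all 33469 windows of this length. It was found in 4 of 15 windows of adhesion genes that rose, in 5 of 8 of those that fell and in 6 of 11 of those that did not pass, among the 34 windows matched to 36 of the genes.

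Itga6, Itga7 and Itgb4, subunits of laminin receptors, passed as higher, with limits for each. Itga6, the alpha 6 subunit that pairs with beta 1 or, in epithelia and myelinating Schwann cells, with beta 4, was measured by 4 probes, and all 4 passed as higher. Its brightest probe had 0.49, 0.51, 0.36 and 0.38 in ligation, against 0.19, -0.11, 0.22 and 0.02 in control (0.35 ± 0.08, adjusted p = 0.00651). The other 3 probes gave changes of 0.55, 0.41 and 0.32. Its partner Itgb4 had 0.67, 0.56, 0.57 and 0.73 in ligation, against 0.21, -0.05, 0.15 and 0.22 in control (1.41-fold, adjusted p = 5.21e-04). Itga7, a laminin receptor of muscle and of axons that regrow, had 0.45, 0.49, 0.61 and 0.63 in ligation, against 0.05, -0.06, 0.06 and 0.00 in control (1.44-fold, adjusted p = 6.92e-05). Its sample intensity was 18.13, 18.17, 17.78 and 21.44 in ligation, against 16.71, 15.82, 18.26 and 17.80 in control. On 3 of the 4 ligation arrays that was within 0.05 of the value at which the array's bright spots piled up, so the ratios on those arrays may be only bounds. The reference of Itga7 read 12.9 on the ligation arrays and 17 on the control arrays. On the sample channel alone, centred on each array's median, its log2 change was -0.10 (adjusted p = 0.489). Before centring, its mean sample intensity was 18.9 in ligation and 17.1 in control. Piled values cannot show the full size of a rise, so the sample channel alone does not settle its direction. Under quantile normalization neither Itga6 (log2 0.06, adjusted p = 0.84) nor Itgb4 (0.09, adjusted p = 0.727) passed.

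Of the integrins that recognise the RGD sequence in fibronectin, vitronectin and latent TGF-beta, Itgav and Itgb8 rose and Itgb5 did not pass. Itgav, the alpha V subunit that pairs with both of these beta subunits, had 0.48, 0.72, 0.71 and 0.45 in ligation, against -0.07, 0.07, 0.00 and -0.25 in control (1.57-fold, adjusted p = 6.27e-04). Itgb5 had 0.00, 0.18, 0.09 and 0.00 in ligation, against 0.00, 0.00, 0.10 and 0.00 in control (log2 0.04, adjusted p = 0.479). Itgb8 had 1.52, 2.41 and 1.77 on ligation arrays 1 to 3 and no value on array 4, against -0.56, -0.22, -0.11 and 0.25 in control. The fit dropped the blank array and gave a rise of 4.18-fold (2.06 ± 0.27, n = 3 and n = 4, adjusted p = 7.21e-04).

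The size of the Itgb8 rise rested on the reference channel. Its mean sample intensity was 6.64 in ligation and 3.96 in control, while the common reference read 1.77 on the ligation arrays and 4.21 on the control arrays. On the sample channel alone the change was 0.58 and did not pass (adjusted p = 0.191). Over all probes the reference was higher on the ligation arrays by a median of 0.21 on the log2 scale, and it differed by over 0.5 in either direction for 5.18% of probes and for 6 of the adhesion genes. The axon adhesion gene Ncam1 was another of the 6, with the reference at 11.6 on the ligation arrays and 6.66 on the control arrays. The sample channel of Ncam1 moved with it, at 11.6 in ligation and 6.46 in control, so the log2 ratio change was 0.02 (adjusted p = 0.85). On the sample channel alone, after centring, the Ncam1 change was 0.60 (adjusted p = 3.95e-04).

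**Figure D2:**
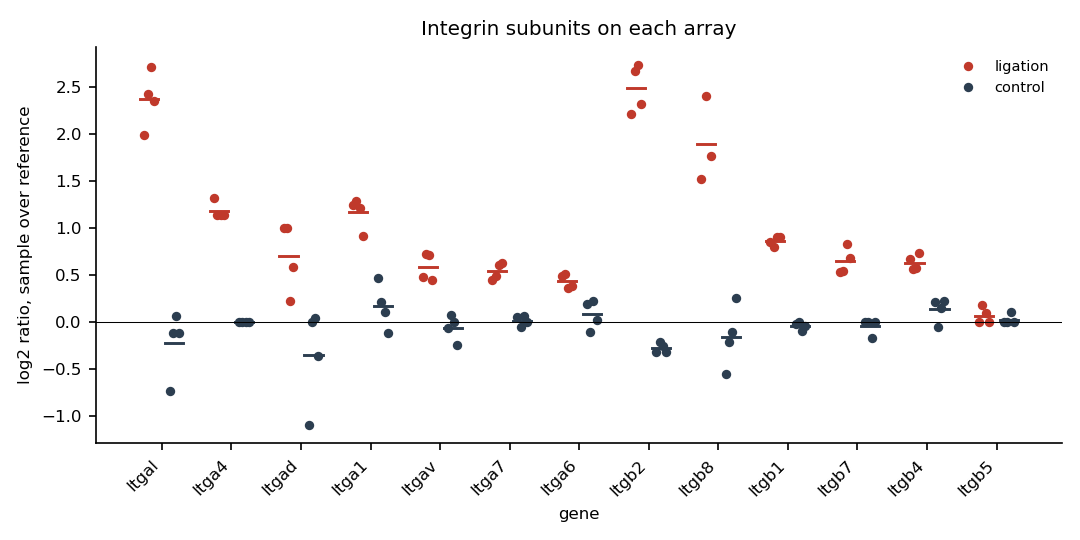
Log2 ratio of sample over reference (vertical axis) of the 13 integrin subunits, with 1 point per array and a line at the group mean, ligation left of control for each gene. The ligation points lie above all control points for every subunit except Itgb5, and Itgb8 has 3 ligation points.

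**Figure D3:**
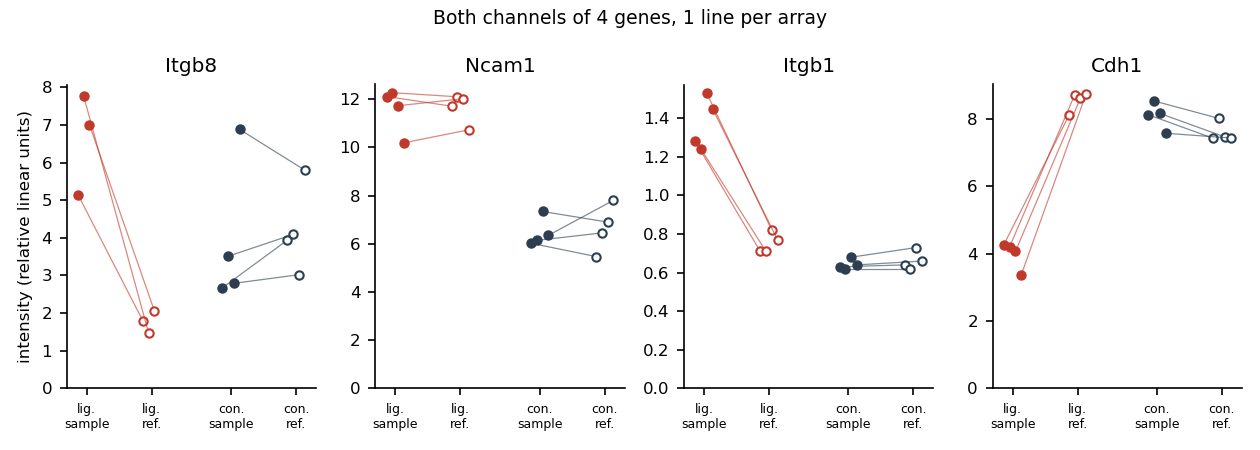
Intensity on a linear scale from 0 (vertical axis) of the sample (filled) and reference (open) channel for Itgb8, Ncam1, Itgb1 and Cdh1, ligation left of control, with 1 line per array. The mean reference is 0.752 on ligation arrays and 0.662 on control arrays for Itgb1, and 8.55 and 7.59 for Cdh1, while for Itgb8 it is 1.77 and 4.21.

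The genes that work with integrins were counted from lists of ligands and of adaptors. Of 20 measured integrin ligands 14 rose and 3 fell, with a median log2 change of 0.58. Fibronectin, Fn1, had the largest log2 change of the list (1.89), with 1 ligation array at its pile value, and the laminin chain genes Lamc1 (0.78) and Lama2 (0.67) had the smallest adjusted p, 6.31e-05 and 9.38e-05. The elastic fibre protein gene Fbln5 fell by 0.81 and vitronectin, Vtn, fell by 0.65. All 5 measured fibroblast markers rose beside them, with a summed intensity of 38.56 to 48.43 in ligation and 18.76 to 26.12 in control. Their part in the rise of matrix and integrin genes was not tested. Of 21 adaptors and kinases 10 rose and 4 fell (median 0.10). Those that rose included Lims1 (PINCH, 0.85), Apbb1ip (RIAM, 1.71), talin Tln1 (1.24), paxillin Pxn (0.77) and focal adhesion kinase Ptk2 (0.57). The 4 that fell were Parvb, Tns1 (-0.626), Lims2 (-0.525) and Ilk (-0.146). Another 7, kindlin Fermt2 and Src among them, did not pass. Parvin members split: Parvg, of blood cells, rose by 2.08 and Parvb fell by 1.29. Itgb1bp1 had 0.01, -0.04, -0.08 and 0.01 in ligation, against -0.05, 0.05, -0.08 and -0.05 in control on its brightest probe and did not pass (log2 change 0.00, adjusted p = 0.939), and its second probe rose by 0.23 (adjusted p = 0.0131).

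Of the 8 classical cadherins in the set 6 fell, led by P-cadherin and E-cadherin, which also join epithelial cells. Cdh3 (P-cadherin) had log2 ratios of -4.58, -3.26, -2.9 and -4.48 in ligation, against 0.00, -0.05, 0.12 and 0.19 in control. The fall was 14.6-fold (-3.87 ± 0.39, adjusted p = 1.05e-04), to a mean intensity of 0.238 in ligation, against 2.9 in control. A second probe of Cdh3 was dim in both groups (0.0475 in ligation and 0.0525 in control) and did not pass (log2 -0.26, adjusted p = 0.133, rounding bounds -0.88 to 0.34). Cdh1 (E-cadherin), the gene next to Cdh3 on chromosome 19 in GRCr8, had -0.93, -1.05, -1.08 and -1.38 in ligation, against 0.13, 0.09, 0.13 and 0.03 in control. It fell 2.30-fold (-1.20 ± 0.09, adjusted p = 2.50e-05), with sample intensities of 3.98 in ligation and 8.11 in control. The depth of the Cdh3 fall varied more among ligation arrays (SD 0.85) than that of Cdh1 (SD 0.19), and arrays 1 and 4 were the lowest for both Cdh3 and Cdh11.

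Cdh11, a cadherin of fibroblasts and other mesenchymal cells, had -0.81, -0.31, -0.13 and -0.74 in ligation, against 0.05, 0.18, 0.08 and 0.08 in control (1.51-fold lower, adjusted p = 0.0123). Its groups were apart, though ligation replicate 3 lay close to the control arrays. Of the 3 other cadherins that fell, all type II cadherins by sequence, Cdh18 had -0.42, -0.58, -1.0 and -0.32 in ligation, against 0.00, 0.00, 0.22 and 0.00 in control (log2 change -0.64). Cdh6 had -0.17, -0.19, -0.36 and -0.17 in ligation, against 0.19, 0.19, 0.00 and 0.00 in control (-0.32). Cdh24 had -0.08, -0.25, -0.15 and -0.21 in ligation, against 0.15, 0.00, 0.09 and 0.22 in control (-0.29). The groups were apart in all 3. These 3 were dim, at 0.0425 to 0.138 in ligation and 0.055 to 0.13 in control, and rounding allowed -1.22 to -0.06 for Cdh18, -0.70 to 0.06 for Cdh6 and -0.53 to -0.05 for Cdh24. Under quantile normalization Cdh18 and Cdh6 did not pass, and on the sample channel alone Cdh6 and Cdh24 did not pass.

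N-cadherin, Cdh2, which joins neurons and glia, depended on the probe. Its brightest probe had -0.16, -0.23, -0.42 and -0.03 in ligation, against -0.02, 0.01, -0.07 and 0.04 in control, and did not pass (log2 -0.20 ± 0.08, adjusted p = 0.0649). It passed as lower without ligation replicate 4 (log2 -0.26, adjusted p = 0.0163), with a replicate block (adjusted p = 0.0388) and among probes above the median intensity (adjusted p = 0.0354). A second Cdh2 probe passed as higher (0.25 ± 0.04, adjusted p = 9.28e-04), with intensities of 0.718 in ligation and 0.505 in control. Cdh22, a brain cadherin, overlapped between groups (log2 -0.19, adjusted p = 0.293), with -0.02, -0.18, -0.37 and 0.07 in ligation, against 0.18, -0.28, 0.11 and 0.27 in control.

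Cadherins outside the classical group behaved differently from each other. Cdh17, the liver-intestine cadherin, had 2.19, 2.17, 2.81 and 2.50 in ligation, against 0.00, 0.00, 0.00 and -0.74 in control. It rose 6.07-fold (2.60 ± 0.22, adjusted p = 3.99e-05), to an intensity of 0.325 in ligation, against 0.045 in control, and rounding allowed 2.14 to 3.08. T-cadherin, Cdh13, which is anchored by a lipid and has no cytoplasmic tail, had 0.14, -0.08, -0.03 and 0.26 in ligation, against -0.04, 0.05, 0.12 and -0.10 in control. It did not pass on its brighter probe (log2 0.06, adjusted p = 0.547) or on the other (-0.07, adjusted p = 0.64). The kidney cadherin Cdh16 had -0.58, -0.58, 0.00 and 0.00 in ligation, against 0.00 on each control array. It was at 0.0225 in ligation and 0.025 in control and did not pass (log2 -0.29, adjusted p = 0.151, rounding bounds -1.53 to 0.92).

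Cell type markers set beside the cadherins moved in different directions. Of 6 measured sensory neuron markers 5 fell and 0 rose, Nefh, Syt1, Isl1 and Snap25 each by over 1 on the log2 scale, with a summed intensity of 21.59 to 25.78 in ligation and 27.15 to 46.55 in control, where Snap25 had no value on 2 arrays. Of 5 satellite glia markers 1 rose (Gja1) and 1 fell (Fabp7, by 1.48). Of 6 Schwann cell and myelin markers 2 rose and 2 fell, with a summed intensity of 47.61 to 55.65 in ligation and 49.5 to 61.48 in control. All 5 measured fibroblast markers rose (median log2 change 1.39), while Cdh11, a cadherin of fibroblasts, fell by 0.59. The part of these cells in the fall of cadherin genes was not tested. Among 14 measured cadherin partners 4 rose and 3 fell (median 0.00). Desmocollin, Dsc2, rose by 1.87 and vinculin, Vcl, by 0.53, while desmoplakin, Dsp, fell by 1.18. Beta-catenin, Ctnnb1, rose by 0.23 (adjusted p = 0.00725), and plakoglobin, Jup, did not pass (log2 -0.02, adjusted p = 0.789).

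Protocadherins, cadherin relatives that are most varied in neurons, had 2 rises and 4 falls among 12 symbols, with Pcdha1 and Pcdha4 counted apart. The clustered alpha protocadherins, whose proteins join a variable outer part to a shared cytoplasmic tail and help neurites tell self from other, fell with little spread. Pcdha1 had -0.84, -0.89, -0.84 and -0.89 in ligation, against 0.00, -0.02, 0.06 and 0.01 in control (1.83-fold lower, -0.87 ± 0.03, adjusted p = 5.38e-07), with sample intensities of 4.63 in ligation and 7.21 in control. Pcdha4 had -0.72, -0.74, -0.82 and -0.79 in ligation, against 0.03, -0.10, 0.02 and 0.10 in control (1.71-fold lower, adjusted p = 8.02e-06). The RefSeq table holds both names as 1 gene, Pcdha4, so whether these probes read different transcripts was not settled. A second Pcdha4 probe was at 0.02 in ligation and 0.0175 in control, and its ratio was 1 on every array.

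The other protocadherins were dimmer, and the brightest of them, Pcdh1 (0.219) and Pcdhb10 (0.209), lay near the median probe intensity of 0.218. Pcdh8, an activity-induced protocadherin of synapses, had -1.0, -1.58, -0.58 and -0.58 in ligation, against 0.00 on all 4 control arrays, and passed as lower (adjusted p = 0.00736). Its intensity was 0.015 in ligation and 0.0225 in control, and rounding allowed -2.57 to 0.49. Pcdhga9 (log2 -0.20, adjusted p = 0.0441) passed as lower with overlapping groups and rounding bounds of -0.52 to 0.12. Without any single array other than ligation replicate 4 it did not pass (adjusted p = 0.0666 to 0.109), nor with the replicate block (adjusted p = 0.106), with loess (adjusted p = 0.0598), under quantile normalization or on the sample channel alone. Pcdhb10 (0.25, with a second probe at 0.44) and Pcdh1 (0.18, adjusted p = 0.0291, overlapping groups) passed as higher, but neither did so under quantile normalization or on the sample channel alone. Pcdh1 did not pass without ligation replicate 3 or 4 or control replicate 1, 2 or 3 (adjusted p = 0.0634 to 0.0745), and under quantile normalization its log2 change was -0.03. Pcdhga4 and Pcdh12 had a ratio of exactly 1 on all 8 arrays, and Pcdhb12, Pcdhb13, Pcdh21 and Pcdh24 did not pass (log2 changes between -0.15 and 0.04).

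Claudins went both ways, 5 of 10 higher and 2 lower. Cldn3, a sealing claudin of epithelia, had -3.50, -3.04, -2.46 and -3.54 in ligation, against 0.10, -0.16, 0.00 and 0.10 in control. It fell 8.85-fold (-3.15 ± 0.24, adjusted p = 2.41e-05), to an intensity of 0.04 in ligation, against 0.293 in control, and rounding allowed -3.43 to -2.89. Ligation arrays 1 and 4 were the lowest, as for Cdh3. Cldn10, which forms ion-selective pores, had -0.14, -0.19, -0.13 and -0.16 in ligation, against 0.00, 0.00, 0.06 and 0.06 in control, a ratio lower by 1.14-fold (adjusted p = 5.18e-04). Its sample intensity was higher in ligation (0.285, against 0.232 in control), and so was the reference (0.318 on ligation arrays and 0.227 on control arrays). The Cldn10 call was lost on the sample channel alone, where the change after centring was 0.05 (adjusted p = 0.712), and under quantile normalization (adjusted p = 0.0575).

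The promoter window of Cldn3 is shown because it is the sharpest fall among genes with a window in the RefSeq table. Cldn3 lies next to Cldn4 on chromosome 12 in GRCr8. The window (chr12:27346498-27346797, minus strand) is printed with capitals for the E-box CAGGTG or its reverse complement CACCTG, the letters bound by Snail and Zeb, known repressors of epithelial junction genes.
Cldn3: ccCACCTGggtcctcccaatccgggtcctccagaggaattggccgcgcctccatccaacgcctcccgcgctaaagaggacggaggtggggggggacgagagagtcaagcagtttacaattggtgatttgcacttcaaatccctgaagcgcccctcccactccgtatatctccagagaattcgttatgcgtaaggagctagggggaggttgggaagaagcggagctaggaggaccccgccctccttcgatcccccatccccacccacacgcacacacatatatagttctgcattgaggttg
It holds the E-box 1 time, starting at base -248 from the gene start. The E-box was in 18.8% of all windows. It was in 2 of 8 windows of adhesion genes that fell, in 3 of 15 of those that rose and in 1 of 11 of those that did not pass. The AP-1 site TGANTCA was in 7.33% of all windows. It was in 0 of the 23 windows of adhesion genes that fell or rose and in 2 of the 11 that did not pass.

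Cldn1, the claudin of the perineurial barrier, rose on both of its probes. The brighter had 0.40, 0.74, 0.72 and 0.60 in ligation, against -0.40, -0.51, -0.51 and 0.17 in control (1.90-fold, adjusted p = 0.00209), and the other gave a change of 0.77 (adjusted p = 0.00298). Control replicate 4 was the highest control array. Cldn7 had 1.32, 1.17, 1.22 and 1.46 in ligation, against 0.58, 0.00, 0.00 and 0.00 in control (2.21-fold, adjusted p = 3.60e-04), at 0.0925 in ligation and 0.0275 in control. Cldn14 (log2 0.81) and Cldn12 (0.35) rose as well. Cldn11 had 0.32, 0.22, 0.32 and 0.32 in ligation, against 0.00 on each control array (0.30, rounding bounds -0.39 to 0.99). It was dim, at 0.055 in ligation and 0.0375 in control. Cldn15, Cldn16 and Cldn17 did not pass and were at or under 0.0775 in both groups, and Cldn17 had a ratio of 1 on all arrays but replicate 2 of each group (-0.58 in ligation and -0.58 in control). Cldn1, Cldn7 and Cldn12 did not pass under quantile normalization (adjusted p = 0.0529, 0.242 and 0.368), nor Cldn11 on the sample channel alone. Of the perineurial markers, Krt19 rose by 2.06 (at 0.05 in ligation and 0.0125 in control) and Slc2a1 by 0.22. Lypd2 passed as lower by 0.14, but its rounding bounds were -0.47 to 0.19. Its sample intensity was 0.0975 in ligation and 0.0775 in control. The summed intensity of these markers, most of it from Slc2a1, was 4.12 to 5.17 in ligation and 2.62 to 3.46 in control. Their part in the claudin changes was not tested.

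Among 13 measured tight junction partners 5 rose and 6 fell (median -0.13). The scaffold genes Tjp1 (0.68) and Tjp3 (0.20) and the junctional adhesion molecule F11r (0.41) rose, as did occludin, Ocln (1.06, at 0.02 in control, rounding bounds holding 0). The polarity scaffold gene Patj fell by 3.19 and Magi3 by 1.06, and Jam2 and Jam3 fell by 0.51 and 0.13.

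**Figure D4:**
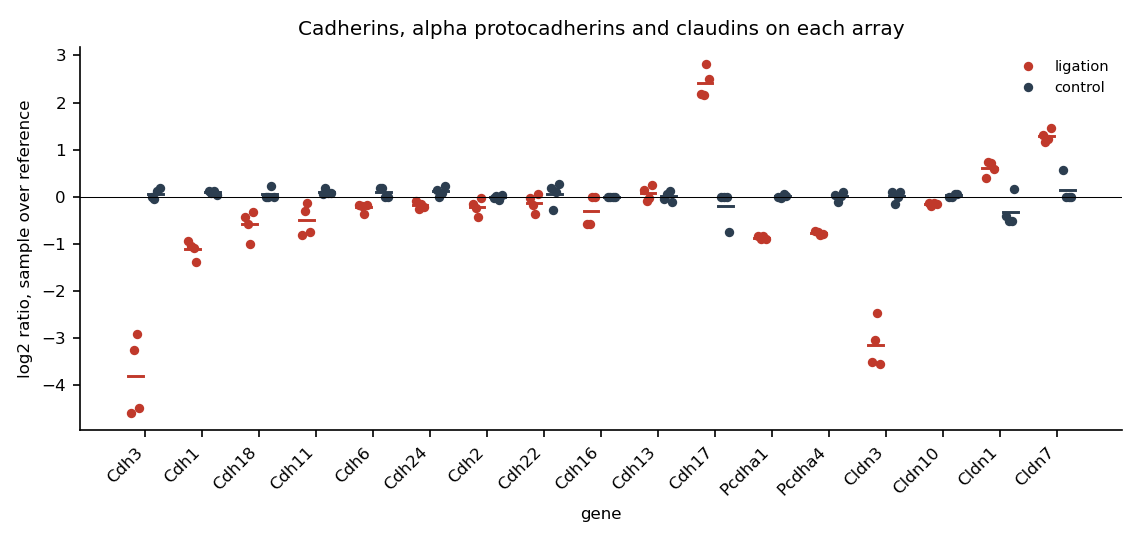
Log2 ratio of sample over reference (vertical axis) of the 11 cadherins, 2 alpha protocadherins and 4 claudins, with 1 point per array and a line at the group mean, ligation left of control for each gene. Cdh3 and Cldn3 lie below -2 on all ligation arrays with a wide spread, Pcdha1 and Pcdha4 lie near -0.8 with a narrow one, and Cdh17 lies above 2.

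The axon adhesion molecules did not pass on their brightest probes. L1cam, which supports axon growth and bundling, had 0.06, -0.17, -0.18 and 0.06 in ligation, against 0.02, 0.10, 0.10 and 0.17 in control (log2 -0.15 ± 0.07, adjusted p = 0.101). It passed as lower under quantile normalization (log2 -0.28, adjusted p = 0.0295). Its 3 spots carried 1 sequence ID, and although their mean intensities ran from 0.22 to 9.66 in ligation and from 0.20 to 9.91 in control, the 3 differences were -0.14 to -0.16. Ncam1 had 0.05, 0.02, -0.04 and -0.07 in ligation, against 0.14, -0.07, 0.09 and -0.30 in control. Nrcam, which clusters channels at nodes of Ranvier with its kin, had -0.01, -0.05, 0.07 and -0.39 in ligation, against -0.10, -0.14, 0.03 and -0.19 in control (log2 0.00, adjusted p = 0.996).

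Second probes of these genes differed. A second Ncam1 probe rose by 0.42 (adjusted p = 0.00389), and a second Nrcam probe fell by 0.63 (adjusted p = 0.00155). Of the 12 genes with several probes, 3 (Cldn1, Itga6 and Pcdhb10) had all probes higher, 8 had some but not all probes past the test, and Cdh13 had none. The contactin genes Cntn1 and Cntn2, partners of L1cam and Nrcam in axon contact, fell by 0.55 and 1.05, and Nfasc, neurofascin of the node, fell by 0.91. In all, 5 of 14 measured partners of the immunoglobulin molecules rose and 4 fell.

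**Figure D5:**
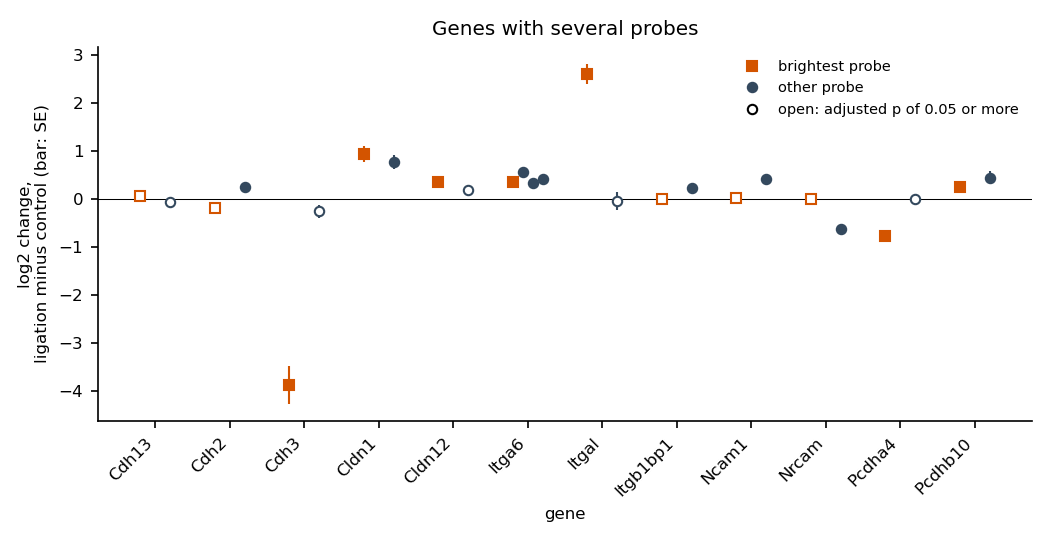
Log2 change, ligation minus control, with its standard error (vertical axis) of each probe of the 12 adhesion genes with several probes. Squares mark the brightest probe of a gene and circles the others, and open symbols did not pass the threshold. The 4 Itga6 probes lie together above 0, while Cdh3, Itgal, Nrcam and Ncam1 differ between probes.

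In the authors' deposited table every array also carries a p-value that sets its 2 channels against each other. By that p-value, 15 of the 52 genes were under 0.05 on all 4 ligation arrays, among them Itgb1, Itgb2, Itgal, Itga4, Cdh1, Cdh3, Cdh17, Cldn3, Pcdha1 and Pcdha4. In the authors' deposited table, 4 genes (Cldn1, Itgal, Itga1 and Cdh17) were under 0.05 on at least 1 control array, and Cldn1 on 3. Of the 34 genes called here, 8 were under 0.05 on 0 ligation arrays in the authors' deposited table, Itga7, Cdh6, Cdh24, Cldn10, Cldn11 and Itgad among them. The matching shares over all named genes were not computed, so these counts have no background to be read against. Rounding bounds excluded a change of 0 for 29 of the 34 called genes, and held 0 for Cdh6, Cldn11, Itgad, Pcdh8 and Pcdhga9.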

How the data were processed

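Of 8 two-colour arrays, 4 held ligation and 4 control samples. Per the labels' protocols 100 ng of RNA was amplified in 2 rounds, and Agilent Feature Extraction 8.5.1.1 is named in the submitters' processing notes. How background and dyes were corrected is not stated in the sources used here. The authors deposited intensity values per channel on a relative linear scale with 2 decimals, and p-values for the ratio within an array. The deposited log10 table equalled log10 of sample over reference within 0.005 for 100% of spots, which gave the direction. All columns of values were matched and 0 left unmapped. Bright spots piled up at single values in 12 of 16 channels. The number of arrays limits precision (median SE of a log2 change 0.063 over all probes).

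Log2 ratios were computed without further scaling, spots of 1 sequence ID averaged, and fitted with limma 3.58.1 in R 4.3.3 (lmFit, eBayes, two-sided, Benjamini-Hochberg over 22379 probes). The fit was tested on simulated data. Tables were handled in pandas 2.3.3 with numpy 2.4.6, and figures drawn in matplotlib 3.10.9, under Python 3.11.15. Names of partner and marker genes came from RefSeq (GRCr8) by accession, symbol or single synonym. The rule for genes printed with all values took the 10 largest rises and falls past the test with groups apart, the 2 smallest adjusted p and the smallest change in each family, and Cdh1, Cdh2, Itgb1, Itgb2, Itgal, Itga4, Icam1, Vcam1, Ncam1, L1cam and Nrcam. Members, lists and motifs were chosen with earlier results of these data known. Itgb7, Itgav, Itgb4, Itga7 and Cldn10, printed with all values, and partner genes with values beyond the rule were chosen after their values were seen. Alternatives were quantile and loess normalization, the sample channel alone, a filter on dim probes and means over probes. The others were a replicate block, trend and robust moderation, and leaving out each array. The sample channel alone was centred on the median of each array. Values of some partner genes are not reported here.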

Additional observations from a re-analysis of the deposited data

Results flagged for a closer look

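Of 103 groups of 4 arrays, 17 held an array whose distance from the nearest of the others filled more of the group's range than Dixon's critical value for 4 samples allows, where chance gives about 1 in 20 groups, or 5.2. In 13 of the 17 the array's sample intensity was under 0.1, where a step of 0.01 shifts the ratio. The rate of 1 in 20 holds for unrounded values. Where rounding ties the other arrays, any single step is flagged, so 17 cannot be set against 5.2.

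On the ligation arrays the log2 ratio stood apart for Cldn15 on replicate 4 (0.19) and Pcdhb13 on replicate 4 (-0.32), each against 0.00 on the others. Replicate 2 stood apart for Cldn16 (0.58, others 0.00), Cldn17 (-0.58, others 0.00), Cldn11 (0.22, others 0.32) and Pcdhb10 (0.18, others 0.35 to 0.36). Cdh6 on ligation replicate 3 was at -0.36 (others -0.19 to -0.17), and Itga4 on ligation replicate 1 was at 1.32 (others 1.14). On the control arrays the others were at 0.00 in each case. Replicate 1 stood apart for Cldn7 (0.58) and Pcdh21 (0.58), and replicate 2 for Cldn17 (-0.58). Replicate 3 stood apart for Cdh18 (0.22), Itgb5 (0.10), Itgb7 (-0.17) and Pcdhga9 (0.12), and replicate 4 for Cdh17 (-0.74) and Pcdh24 (-0.32). The causes were not tested.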

How the results depend on the processing

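The adhesion genes gave 22 higher and 12 lower calls. Leaving out each array in turn gave 21 to 22 higher, 11 to 13 lower and 9 to 12 with at least a 2-fold difference, and 35 to 39 higher and 18 to 21 lower partner genes. Among all named genes 28.5% to 29.8% were then higher and 33.4% to 35.1% lower. Under quantile normalization between arrays, which gives all arrays 1 spread of ratios, 11 adhesion genes were higher and 6 had at least a 2-fold difference, and 17 partner genes were higher and 11 lower. Integrin subunits were then higher in 8 of 13 and classical cadherins lower in 4 of 8, with 0 in the other direction, against 17.5% higher and 17.6% lower among all named genes under that setting. With only probes above the median intensity, 24 genes were left, since fewer genes were tested, and 5 had at least a 2-fold difference. Of the 24, 10 were higher (41.7%) and 8 lower (33.3%), against 35.8% higher and 43.3% lower among all named genes. On the sample channel alone 17 genes were higher and 9 lower, against 20.3% higher and 27.8% lower among all named genes. The replicate numbers gave correlations of deviations between same-numbered arrays of 0.074 to 0.161, every ligation array correlating best with the control array of its own number. They were not taken as pairs, and with the replicate block 21 adhesion genes were higher, 12 lower and 10 at least 2-fold different, and 36 partner genes were higher and 20 lower. With that block 29.4% of all named genes were higher and 34.5% lower. Of 752 values of single adhesion genes under the alternatives, 701 kept their direction and side of the threshold or stayed without a call, 39 lost the call and 7 gained it. The 5 that changed sign were Cldn10 (0.051), Itga7 (-0.103) and Cldn17 (-0.386) on the sample channel alone, Pcdh1 (-0.033) under quantile normalization, and Nrcam. Nrcam had a log2 change of -0.313 as the mean of its probes. Itga7 was at its pile value on 3 ligation arrays, so the sample channel alone could not show the full size of a rise. The cause of these changes of sign was not tested. Depth limits dim genes most: values under 0.1 moved in coarse steps.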
